A study of Mus musculus with 8 samples.

Results

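Cortical progenitor-like nuclei were the nuclei of the 2 cortex (CTX) libraries in which open chromatin was counted mostly at progenitor genes and little at genes of glutamatergic neurons. Nuclei with at least 5000 counts in peaks were ranked by a score, (E + 1)/(A + E + 2). A was the count in peaks over Hes1, Hes5, Sox2, Notch1, Nes and Vim with 2 kb upstream of each gene, and E the same for Slc17a6, Neurod2, Neurod6, Tbr1, Eomes and Nhlh1. Members were thus chosen by their measured counts at these 12 genes: the lowest 15% of each library, which were 580 of 3870 nuclei in the library labelled E12.5 and 720 of 4801 in the library labelled E14.5, 1300 of 39253 nuclei in all. The score was made from measured values, so the levels of these 12 genes and the differences between members and other nuclei of the same library are descriptions and carry no test.

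Radial glia are the progenitors that line the ventricle of the embryonic forebrain and divide to give further progenitors, intermediate progenitors and neurons. Notch receptors, activated by ligands on neighbouring cells, hold them in the progenitor state through Hes genes, while proneural factors of the Neurog and Neurod families drive exit toward neurons. Emx1, Emx2, Pax6 and the Dmrt genes mark the dorsal territory that becomes the cortex, and Gsx2, Nkx2-1, Olig2 and the Dlx genes mark the ganglionic eminences below it.

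The series held single-nucleus assay for transposase-accessible chromatin (snATAC-seq) profiles of 8 libraries from wild-type mouse embryos, with no transgene or treatment. There were 2 libraries each of CTX and of 3 ganglionic eminences (GE), namely the medial one (MGE), the lateral one (LGE) and the caudal one (CGE). CTX replicate 2 was labelled E14.5 and the other libraries E12.5. Within CTX, age and library therefore cannot be told apart. No source says whether 2 libraries of a region came from separate litters. The p-values below therefore measure only the spread between libraries, which may be technical and in CTX also includes the labelled age. Libraries held 77387940 to 138873845 counts in peaks. The members' counts summed to 14500324 in the library labelled E12.5 and 12090717 in the library labelled E14.5. Any 2 libraries shared 15 to 56 barcodes, at most 1.17% of the smaller library, and the CTX libraries shared 36. No doublet caller was run.

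The CTX libraries differed in how the score was spread. Members had a median of 34 progenitor-gene counts and 2 neuron-gene counts in the library labelled E12.5, against 14 and 16 in its other nuclei. The medians in the library labelled E14.5 were 20 and 0 in members, against 18 and 4. Members there were thus set apart by the near absence of neuron-gene counts and hardly by more progenitor-gene counts. The last member and the first nucleus left out both had a score of 0.167 (A = 24, E = 4) in the first library and 0.075 (A = 36, E = 2) in the second, and 180 and 565 nuclei lay within 0.02 of these limits. When nuclei were ranked on counts thinned to 1 depth, 69.3% of the members labelled E12.5 and 50.3% of those labelled E14.5 were members again, so about as many of the latter changed as stayed. At the limit of the library labelled E12.5, 15.7% of its own nuclei qualified, against 46.1% of the library labelled E14.5. The median score of the other nuclei was 0.536 and 0.214. Median counts per nucleus were 20521 in members and 24503 in other nuclei of the first library, and 15368.5 and 16162 in the second.

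**Figure D1:**
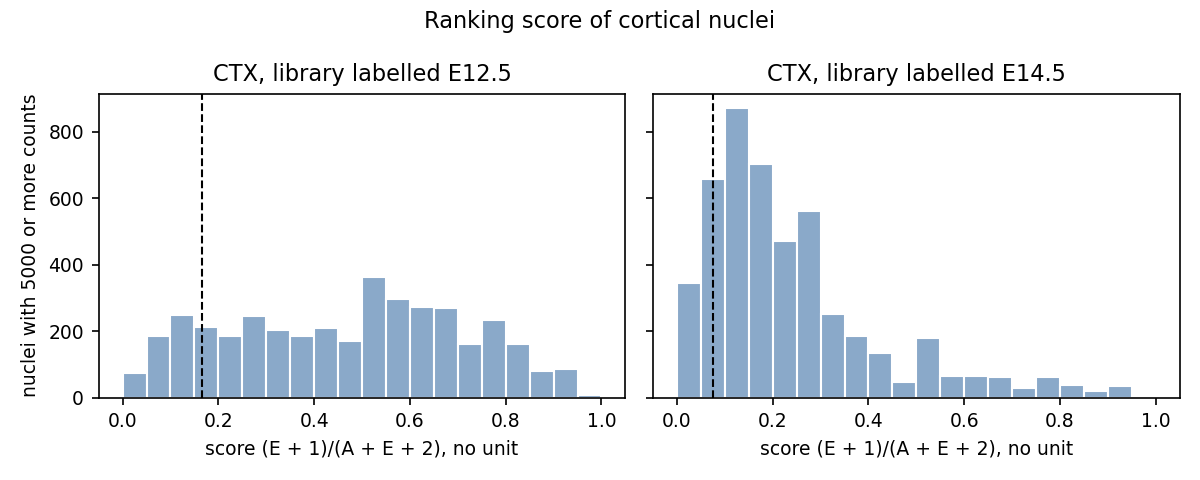
Number of nuclei with 5000 or more counts (vertical axis) by ranking score without unit (horizontal axis, steps of 0.05) in each CTX library; the dashed line is the limit below which nuclei were members, 0.167 and 0.075. The library labelled E12.5 spread over the whole range, while the library labelled E14.5 was crowded at low scores.

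The age labels were set against genes known to change with cortical age before the members were compared. Levels here are CPM (counts scaled to a fixed library total) over the regions with a peak in all 8 libraries. Differences are log2 ratios of the library labelled E14.5 to that labelled E12.5 after 5 CPM were added to each side. With 1 library per age these carry no test. Of 15217 genes, 11.4% were past 0.5 upward and 5.88% past it downward, with a median of 0.14. Lin28a and Lin28b, RNA-binding proteins of early progenitors that decline as neurogenesis proceeds, ran opposite to that order. Lin28a was at 23.4 CPM in members labelled E12.5 and 75.5 in those labelled E14.5, and Lin28b at 26.0 and 77.0. The 6 GE libraries, all labelled E12.5, held 55.7 to 111 CPM of Lin28a and 74.2 to 90.2 of Lin28b, so the CTX members labelled E14.5 lay in the range of E12.5 GE and those labelled E12.5 below it.

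Genes known to open as radial glia mature ran the other way. Of 16 late radial glia genes described, 7 were lower in the library labelled E14.5 and 1 was higher, Id3, with a list median of -0.36. In CTX members labelled E12.5 and E14.5, Aldh1l1, a folate enzyme used as a glial marker, was at 211 and 45.4 CPM. Zbtb20, a zinc-finger repressor of late progenitors and glia, was at 996 and 436 CPM, and Nfix, a nuclear factor I protein of maturing progenitors, at 1034 and 569. The summed late list was 4956 and 3230 CPM, and 2750 to 3125 in GE. Of 11 early progenitor genes 4 were higher in the library labelled E14.5 (Lin28a, Lin28b, Trim71 and Hmga1) and none lower, with a median of 0.36. The medians of the same lists between the 2 libraries of a GE region were -0.27 to 0.03 for the late and 0.01 to 0.16 for the early list. Longer peaks had been called over some of these genes in the library where they were higher, and per covered kilobase the medians were -0.08 for the late and 0.22 for the early list. In the other nuclei of the 2 libraries the medians were -0.09 for the late and 0.41 for the early list. Over all genes the median was 0.14 in members, 0.06 in other nuclei and 0.21 per covered kilobase in members. Not scaled by length, the early list lay above the all-gene median in members and other nuclei, against the usual order of the 2 ages. The late list lay below it, also against that order, by less in other nuclei than in members. Per covered kilobase the early median was near that of all genes and the late median lay below it. The GE medians were not scaled by length and cannot be set beside the values per kilobase. The part of age, dissection, library and peak calling in this was not tested, and the members of the 2 libraries are described apart below.

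The cortical hem, a signalling centre at the medial edge of the cortex that secretes Wnt and Bmp proteins, showed the most uniform list difference among those examined here. Of 10 hem genes 8 were higher in members of the library labelled E14.5, with a median of 0.79, against medians of -0.08 to -0.00 between the libraries of a GE region. Wnt8b was at 64.3 and 200.3 CPM, Wnt3a at 5.37 and 23.1, Bmp7 at 62.1 and 132, and Lmx1a, a homeobox gene needed for hem identity, at 66.6 and 123. The other nuclei of the 2 libraries differed by a similar median, 0.75. The difference was thus one between whole libraries and was not confined to members. Dmrta1, a dorsal regulator, was at 42.5 and 129 CPM in members. Emx1 was at 158 and 169 CPM and did not follow these genes. Per covered kilobase the hem median was 0.42 and that over all genes 0.21, while the GE medians above were not scaled by length.

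**Figure D2:**
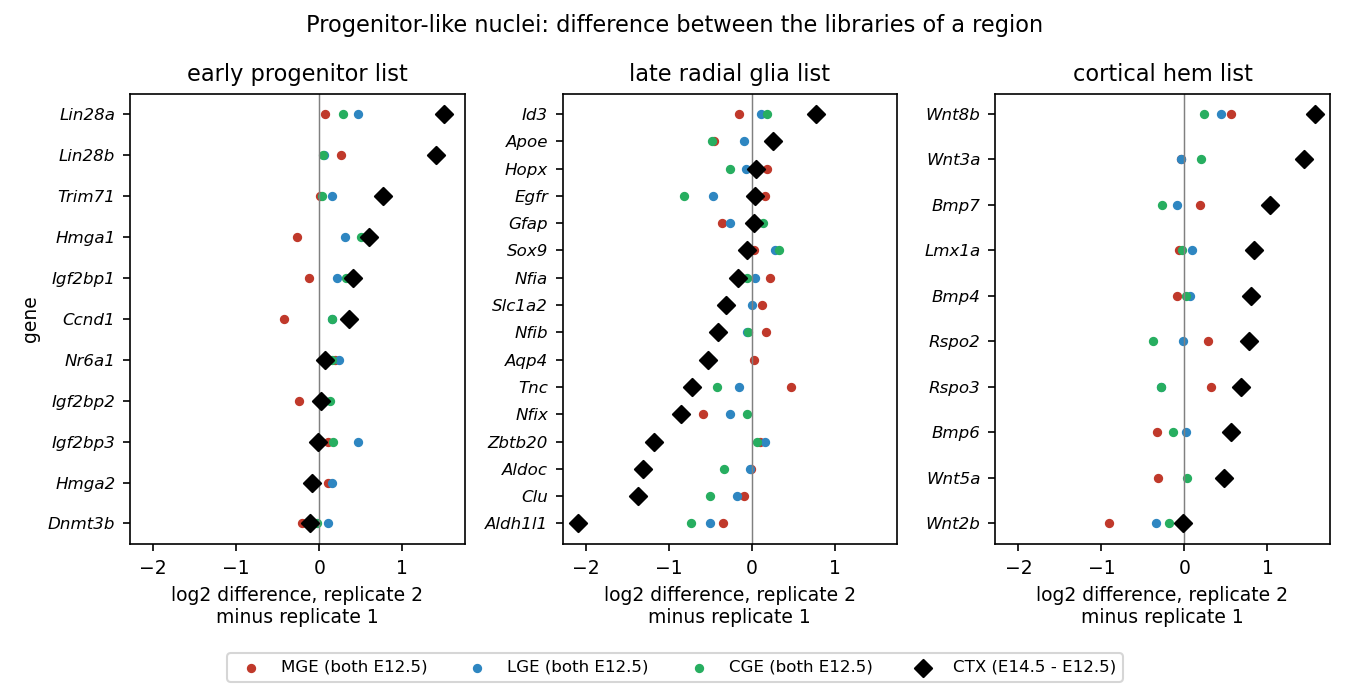
Log2 difference between replicate 2 and replicate 1 of a region in progenitor-like nuclei (horizontal axis) for each gene of the early progenitor, late radial glia and cortical hem lists (vertical axis); diamonds are CTX (labelled E14.5 minus labelled E12.5) and circles the 3 GE regions, whose libraries were all labelled E12.5. The CTX diamonds of Lin28a, Lin28b and 8 of 10 hem genes lie above 0.5 and those of Aldh1l1, Clu, Aldoc, Zbtb20 and Nfix below -0.5.

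Members were then set beside the other nuclei of their own library, with levels in CPM over all of that library's peaks at a gene. In the library labelled E12.5, 5.9% of 15068 genes were higher by more than 0.5 (log2, 5 CPM added) and 7.63% lower. Of the same genes, 0% in the library labelled E14.5 were higher and 0.246% (37 genes) lower. None was higher in both (0%) and 28 were lower in both (0.186%). Since the score of the second library separated its nuclei so little, members were also set beside the highest-scoring 15% of nuclei. Against these, 12.9% of genes were higher and 13.2% lower in the library labelled E12.5, 3.35% and 5.36% in the library labelled E14.5, and 2.52% (380 genes) and 3.22% (485 genes) in both. Across genes, the ratios of the 2 libraries had a Pearson correlation of 0.37 against other nuclei and 0.57 against the highest 15% (n = 15068 genes, which are not independent and share library depth).

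The radial glia list, 14 genes that the ranking did not use, checked the name of these nuclei. In the library labelled E12.5, 10 of 14 were higher in members than in other nuclei by more than 0.5 and none was lower, with a list median of 0.62 against -0.02 over all genes. None of 14 passed 0.5 in the library labelled E14.5 and the median was 0.13. Against the highest-scoring 15%, 11 and 8 of 14 were higher and 7 were higher in both libraries. Sox3, a neural progenitor transcription factor, was at 92.1 CPM in members, 41.3 in other nuclei and 23.4 in the highest 15% of the first library, and at 105, 93.3 and 57.0 in the second. Sox1, its close relative, was at 156, 79.7 and 47.0 CPM, then 149, 127 and 68.7. Both genes were graded along the score in both libraries, but in the second the step between members and other nuclei was small. Hopx, a homeodomain-only protein of radial glia, was at 98.8, 53.2 and 33.0 CPM, then 107, 89.3 and 63.3. Slc1a3, the glial glutamate transporter, was at 204, 109 and 83.4 CPM in the first library and 75.0, 70.7 and 52.8 in the second. The label is therefore carried by radial glia genes outside the score in the library labelled E12.5. In the library labelled E14.5 it is carried only against the nuclei with the highest scores, since most other nuclei had like levels.

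Emx1, the dorsal gene named as a marker but not used in the ranking, lies at chr6:85187438-85204462 (GRCm38). It was at 120 CPM in members (exact Poisson 95% interval 112 to 129) and 94.1 (91.7 to 96.6) in other nuclei of the library labelled E12.5. In the library labelled E14.5 it was at 153 (143 to 163) and 145 (141 to 149) CPM, and these intervals overlapped. At least 1 count over Emx1 was seen in 65.3% of members and 62.3% of other nuclei in the first library and in 64.2% and 65.2% in the second. Emx1 thus marked the CTX nuclei as a whole more than the members among them. Pax6 had at least 1 count in 86.9% of members and 75.0% of other nuclei in the first library, and in 81.5% and 77.5% in the second. All intervals cover counting error only.

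Lists for other cell types were read the same way. Genes of GABAergic cells summed to 540 and 683 CPM in CTX members and 693 to 1295 in GE members. Endothelial genes summed to 147 and 161 CPM (GE 136 to 215), microglial genes to 178 and 148 (GE 144 to 199) and mural or mesenchymal genes to 178 and 207 (GE 219 to 314). The hemoglobin gene Hba-a1 and the erythroid factor Gata1 had 0 counts in members of both CTX libraries. Klf1, of the same erythroid list, was at 32.3 and 33.5 CPM. The endothelial tight-junction gene Cldn5 had at least 1 count in 4.48% and 7.08% of CTX members and the microglial receptor Csf1r in 5.69% and 1.39%. Dlx2 and Gad1, genes of GABAergic cells, had a count in 37.1% and 36.2% of members labelled E12.5 and in 31.1% and 37.4% of those labelled E14.5, so a single count was common at genes of another territory. Median depth was 20521 and 15368.5 counts per member.

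When members were cut into 3 equal parts by score, the summed radial glia list was 3630, 3551 and 3565 CPM from the lowest to the highest part in the library labelled E12.5 and 3117, 3062 and 2951 in the other. Fgfr2, a growth factor receptor whose annotated span shares regions with many neighbours, held most of this sum: 2128 of 3581 CPM in all members of the first library (2073 CPM in other nuclei) and 1841 of 3048 in the second (1831 in other nuclei). The sum therefore mostly reports that 1 locus. The summed glutamatergic neuron list, without the genes of the score, was 1586, 1648 and 1726 CPM and then 1673, 1611 and 1589. Over all nuclei, cut by score into 10 equal groups, the neuron list went from 1618 to 2582 CPM in the library labelled E12.5. It stayed in the library labelled E14.5 between 1617 and 1702 CPM over the first 9 groups and was 1827 in the last. The dorsal list went from 3555 down to 2007 CPM in the first library and from 4144 to 2884 in the second, with most of the second library's drop in the last group.

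**Figure D3:**
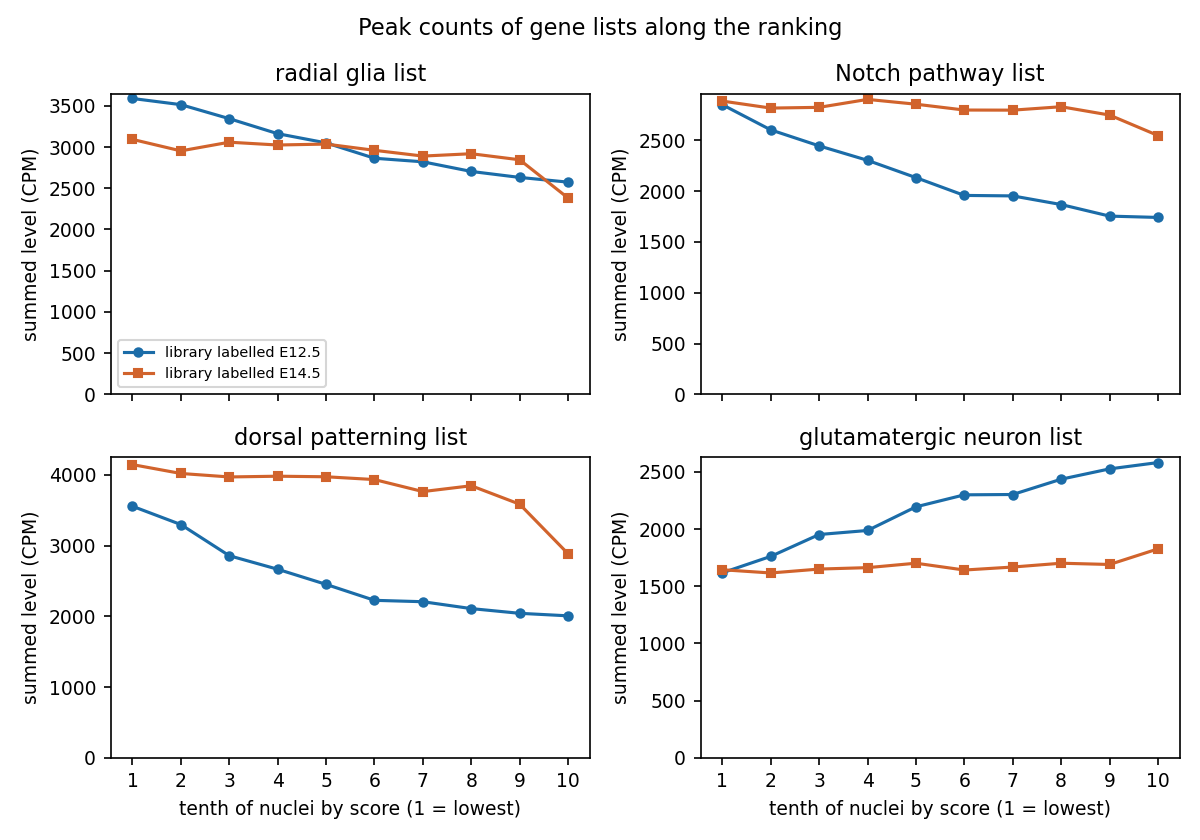
Summed CPM of 4 gene lists (vertical axes, from 0) in 10 equal groups of nuclei ordered by score (horizontal axis, 1 is the lowest), 1 line per CTX library. In the library labelled E12.5 the radial glia, Notch and dorsal lists fall and the neuron list rises along the whole range. Most of the radial glia sum is Fgfr2. In the library labelled E14.5 the Notch and neuron lists change little up to group 9. Between groups 1 and 9 of that library the radial glia list falls from 3093 to 2845 CPM and the dorsal list from 4144 to 3585. Both fall further in group 10.

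Notch pathway genes were read by role, and none passed 0.5 against other nuclei in the library labelled E14.5. Notch2, a receptor, was at 535, 262 and 166 CPM in members, other nuclei and the highest 15% of the library labelled E12.5, and at 292, 264 and 189 in the library labelled E14.5. Lfng, which modifies Notch receptors, was at 139, 63.7 and 23.6 CPM and then 140, 128 and 90.1. Nrarp, a Notch target that feeds back on the pathway, was at 125, 63.3 and 38.0 CPM and then 93.0, 84.1 and 61.1. The ligands did not move as 1 group. Jag1 was at 205, 104 and 60.3 CPM and then 252, 238 and 184. Dll3, made by cells leaving the progenitor state, was lower in members, at 17.9, 29.7 and 31.5 CPM and then 22.7, 30.7 and 52.1. Jag2 was likewise lower, at 14.96, 22.1 and 25.7 CPM and then 16.3, 22.7 and 37.4. Of 20 Notch genes, 7 were higher and 2 lower than in other nuclei of the first library, while 5 were higher and 3 lower than in the highest 15% of both.

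Dorsal patterning genes were higher in members for 7 of 17 and lower for none in the library labelled E12.5, with a median of 0.42. Gli3, which represses Sonic hedgehog targets in the dorsal forebrain, was at 737, 362 and 232 CPM in members, other nuclei and the highest 15%, and at 647, 602.5 and 453 in the library labelled E14.5. Pax6 was at 324, 195 and 119 CPM and then 281, 253 and 188. Wnt signalling genes showed the largest share of members past the limit in both libraries against the highest 15%, 8 of 13 with none lower. Tcf7l1, a transcriptional partner of beta-catenin, was at 497, 237 and 151 CPM and then 319, 290 and 200. Fzd9, a Wnt receptor, was at 135, 63.0 and 32.7 CPM and then 175, 156 and 91.0. Nkd1, a Wnt-induced inhibitor, was lower in members, at 73.8, 133 and 149 CPM and then 80.8, 92.1 and 116.

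Polarity, Hippo and Fgf genes moved in part. Crb2, an apical polarity protein, was at 161, 64.4 and 33.0 CPM in the library labelled E12.5 and at 158, 142 and 99.8 in the other, but only 2 of 12 apical junction genes were higher by more than 0.5 in the first library. Of 11 Hippo genes 4 were higher there, led by Wwtr1, the TAZ coactivator, at 159, 70.7 and 40.2 CPM and then 95.7, 94.3 and 70.7. Of 11 Fgf signalling genes 3 were higher, among them the receptor Fgfr1 at 293, 155 and 111 CPM and then 229, 205 and 173. Of 16 late radial glia genes 6 were higher in members of the library labelled E12.5, with a median of 0.40, and none in the library labelled E14.5, with a median of -0.00. Aldoc, an aldolase of astroglia, was at 75.7, 26.5 and 9.98 CPM in the first library and 28.9, 29.6 and 14.7 in the second.

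Of 12 glutamatergic neuron genes outside the score, 5 were lower in members of the library labelled E12.5 and 1 in the library labelled E14.5. Nhlh2, a basic helix-loop-helix factor of young neurons, was the only gene of the glutamatergic neuron list past -0.5 in both libraries, at 12.9, 33.2 and 35.9 CPM in members, other nuclei and the highest 15% of the first library and 12.3, 24.6 and 58.2 in the second. Neurod1, which acts in intermediate progenitors and new neurons, was at 34.8, 83.8 and 91.9 CPM and then 46.5, 65.99 and 129. Stmn2, a microtubule regulator of growing axons, was at 10.8, 38.3 and 54.8 CPM and then 15.3, 19.5 and 44.8. Of 12 intermediate progenitor genes 5 were lower than in other nuclei of the first library and none higher. Against the highest 15%, 3 were lower and 3 higher in the first library, and 4 lower and 0 higher in the second. Not every neuron gene was lower: Sox5, a factor of deep-layer neurons named after its values were seen, was at 742 CPM in members and 893 in other nuclei of the first library and at 718 and 681 in the second. Reln, secreted by Cajal-Retzius cells, was at 120, 213 and 247 CPM and then 91.1, 111 and 174. Outside the lists, the genes lower than other nuclei in both libraries with the largest mean ratios included Sstr3, a somatostatin receptor, Atp2b3, a neuronal calcium pump, and Ina, a neuronal intermediate filament. Genes higher than the highest 15% in both were led by Mlc1, an astroglial membrane protein, at 95.2, 29.4 and 3.66 CPM and then 64.3, 49.2 and 26.3. Others in that group were S1pr1, a lipid receptor, and Rlbp1, a retinoid-binding protein of radial glia.

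The differences lay mostly away from start sites. Of 53410 regions with at least 200 counts in each CTX library, 41 (0.0768%) were higher in members than in other nuclei of both libraries by more than 0.5 and 906 (1.7%) were lower. Regions within 1000 bases of a transcription start site made up 27.4% of all described, 2.44% of those higher and 4.42% of those lower. Members placed 40.6% and 46.8% of their counts at start sites, against 38.8% and 46.6% in other nuclei of the same libraries. The centres of 3 of the strongest regions are shown to let the letters be read beside the counts. They were chosen among the named regions after their values were seen. They are 300 bases of the plus strand of GRCm38, with capitals marking the POU octamer ATGCAAAT in the region higher in members and the E-box CAGATG, or CATCTG as its reverse, in the regions lower in members.
chr9:61550429-61550728, intergenic, higher in members: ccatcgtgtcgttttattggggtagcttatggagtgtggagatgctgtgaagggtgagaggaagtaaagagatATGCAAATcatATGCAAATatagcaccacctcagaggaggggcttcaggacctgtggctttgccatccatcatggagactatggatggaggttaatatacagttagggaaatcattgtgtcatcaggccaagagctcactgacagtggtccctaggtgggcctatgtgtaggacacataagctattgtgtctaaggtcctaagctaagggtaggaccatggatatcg
chr6:113856907-113857206, intron of Atp2b2, lower in members: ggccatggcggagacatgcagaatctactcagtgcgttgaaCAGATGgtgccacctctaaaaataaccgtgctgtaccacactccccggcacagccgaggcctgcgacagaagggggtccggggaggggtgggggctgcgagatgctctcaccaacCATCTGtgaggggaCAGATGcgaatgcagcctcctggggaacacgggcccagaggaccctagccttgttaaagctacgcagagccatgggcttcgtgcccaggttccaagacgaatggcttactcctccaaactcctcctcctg
chr7:127008774-127009073, introns of Mvp and Pagr1b, lower in members: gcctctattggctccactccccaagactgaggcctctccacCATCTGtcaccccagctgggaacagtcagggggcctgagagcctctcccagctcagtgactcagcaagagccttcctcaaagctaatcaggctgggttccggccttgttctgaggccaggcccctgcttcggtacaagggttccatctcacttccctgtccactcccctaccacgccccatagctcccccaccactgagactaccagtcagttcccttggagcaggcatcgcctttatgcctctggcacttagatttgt

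The first window is the centre of chr9:61549218-61551940, 175050 bases from the nearest start site, that of Tle3. That region held 98.1 CPM in members and 25.6 in other nuclei of the library labelled E12.5, and 16.0 and 9.62 in the library labelled E14.5. Its window has 2 octamers 3 bases apart. The second is the centre of chr6:113855057-113859056, inside Atp2b2, a calcium pump of neurons, where members held 8.83 CPM and other nuclei 56.8 in the first library and 0.744 and 8.57 in the second. Its window has 3 E-boxes of this form. The third is the centre of chr7:127007975-127009872, with 2.76 CPM in members against 32.7 and 0.331 against 6.58, and its window has 1. The region with the largest mean difference downward, chr1:38630769-38635294 inside Aff3, held 5.59 CPM in members against 46.6, and 0.992 against 8.49. That with the largest upward, chr14:54331755-54334272, 27827 bases from the start of Oxa1l, held 81.0 against 20.6 and 58.6 against 37.8.

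Letters were then counted on both strands in the central 300 bases of every described region. CAGATG was found in 46.9% of the 906 lower regions, 12.2% of the 41 higher ones and 21.1% of all. CAGCTG, a related E-box, was in 32.0%, 26.8% and 19.1%. The homeodomain core TAATTA was in 16.4%, 26.8% and 11.6%, and the TEAD core GGAATG in 14.1%, 26.8% and 15.5%. ATGCAAAT was in 2.87%, 4.88% and 2.33%, the upper of these being 2 of 41 regions. The mean GC content was 47.4%, 43.6% and 51.3%. These shares describe letters and are not tests of a factor.

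The authors' motif counts, summed over all peaks with a motif, were set beside the counts in regions. Of 9 proneural motifs 0 were higher in members in either library, with medians of -0.28 and -0.04. NEUROD2 was at 302, 439 and 498 CPM of motif counts in members, other nuclei and the highest 15% of the library labelled E12.5 and 321, 336 and 399 in the library labelled E14.5. Neurog1 was at 395, 568 and 640.0 CPM and then 324, 339 and 401. Pax6 was highest in members, at 34.5, 26.7 and 23.0 CPM and then 45.5, 43.4 and 37.6. The composite Pou5f1::Sox2 motif was at 745, 609 and 535 CPM and then 886, 842 and 744. Of 11 SOX motifs 8 and 10 were higher, with medians of 0.05 and 0.01, and all 4 POU and all 4 TEAD motifs were higher in both libraries by medians of 0.06 or less. Over all 579 motifs 332 and 317 were higher. Motifs of a family share sites, so they are not separate observations.

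**Figure D4:**
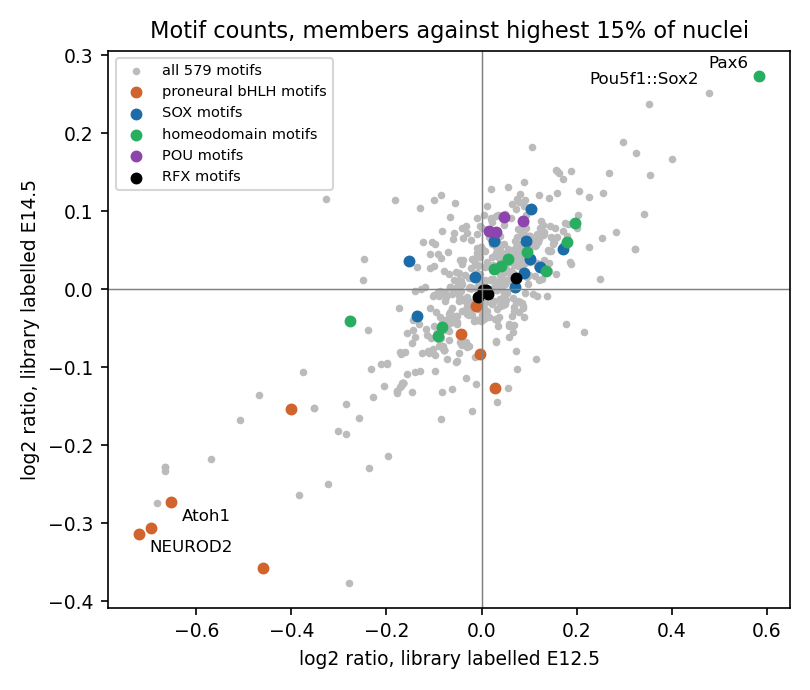
Log2 ratio of motif counts in members to the highest-scoring 15% of nuclei in the library labelled E12.5 (horizontal axis) and in the library labelled E14.5 (vertical axis), 1 point per deposited motif, with 5 families coloured. Pax6 and Pou5f1::Sox2 lie at the upper right (0.58 and 0.27, 0.48 and 0.25) and most proneural motifs at the lower left.

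CTX members were next compared with progenitor-like nuclei of GE, to ask which chromatin set the dorsal progenitors apart. CTX held 1 library labelled E12.5 and 1 labelled E14.5, while all 6 GE libraries were labelled E12.5. The model had no term for age, so region and age are partly mixed and the spread within CTX includes age. GE nuclei were ranked by the same progenitor genes against genes of GABAergic cells, among them Gad1, Gad2 and Slc32a1, and the lowest 15% gave 4203 nuclei in 6 libraries. Counts were summed per library and tested with edgeR's quasi-likelihood test on 2 CTX against 6 GE libraries, with Benjamini-Hochberg adjustment over all features. The genes of either score were left out. Fewer open nuclei of a kind and less opening per nucleus cannot be told apart in such sums. Values are CPM scaled between libraries (TMM) over regions with a peak in all 8 libraries. Of 16191 genes 609 (3.76%) rose and 230 (1.42%) fell in CTX. Without the CTX library labelled E14.5 the counts were 983 and 236, and without that labelled E12.5 they were 426 and 357. The total of 839 calls fell to 423 without MGE replicate 1, 536 without MGE replicate 2, 501 without LGE replicate 2 and 499 without CGE replicate 2. It fell to 254 with the length covered by peaks as offset and to 304 with start-site regions only.

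Dorsal patterning genes rose in 10 of 17 cases and fell in 1, with a median log2 fold of 0.79 against -0.00 over all genes. Emx1 was at 195 and 185 CPM in CTX members and 26.8 to 43.1 in the 6 GE libraries. The groups did not overlap, and the log2 fold was 2.33, with SE 0.15 and edgeR adjusted p = 3.71e-05. A region counted for Emx1 was also counted for its neighbour Sfxn5. Dmrt3, a dorsal regulator of the doublesex family, was at 206 and 318 CPM against 47.7 to 68.2 (log2 fold 2.11, SE 0.17, edgeR adjusted p = 0.000151). Dmrta2, needed for the medial cortex, was at 350 and 347 CPM against 83.4 to 139 (log2 fold 1.75, SE 0.12, edgeR adjusted p = 3.71e-05). Dmrta1 was at 52.3 and 141 CPM against 15.7 to 49.1, so its lower CTX library lay just above the highest GE library (log2 fold 1.77, SE 0.27, edgeR adjusted p = 0.00377). Pax6 was at 517 and 379 CPM against 180 to 360 (log2 fold 0.69, SE 0.14, edgeR adjusted p = 0.0188), and the call was lost in 6 of 21 alternatives, each leaving out 1 library (adjusted p 0.000164 to 0.0981 over all). The single dorsal gene that fell was Fezf1, at 83.4 and 105 CPM against 125 to 176. Fezf1 and, among the genes that rose, Fezf2, Emx2 and Lhx2 are named after their values were seen.

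Ventral patterning genes were lower. Of 16, 8 fell and none rose, with a median of -0.72. Gsx2, which patterns the LGE, was at 30.1 and 40.0 CPM in CTX members and 148 to 203 in GE (log2 fold -2.28, SE 0.19, edgeR adjusted p = 0.000164). Six3, a homeobox gene of the anterior forebrain, was at 47.2 and 85.4 CPM against 241 to 330 (log2 fold -2.12, SE 0.25, edgeR adjusted p = 0.000795). Nkx2-1, the MGE determinant, was at 27.8 and 62.8 CPM in CTX, 69.3 to 94.3 in LGE and CGE and 444 and 615 in MGE. The spread between GE regions was thus larger than that between CTX and LGE (log2 fold -1.77, SE 0.29, edgeR adjusted p = 0.00554). Olig2 was at 70.3 and 55.9 CPM against 130 to 287 (log2 fold -1.46, SE 0.18, edgeR adjusted p = 0.00105). Dlx1 and Dlx2 share every region counted and were 1 observation, at 124 and 127 CPM for Dlx2 against 251 to 366 (log2 fold -1.26, SE 0.16, edgeR adjusted p = 0.00128). Of 5 GABAergic genes not used in the GE ranking 3 fell, Gsx2, Dlx1 and Dlx2.

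**Figure D5:**
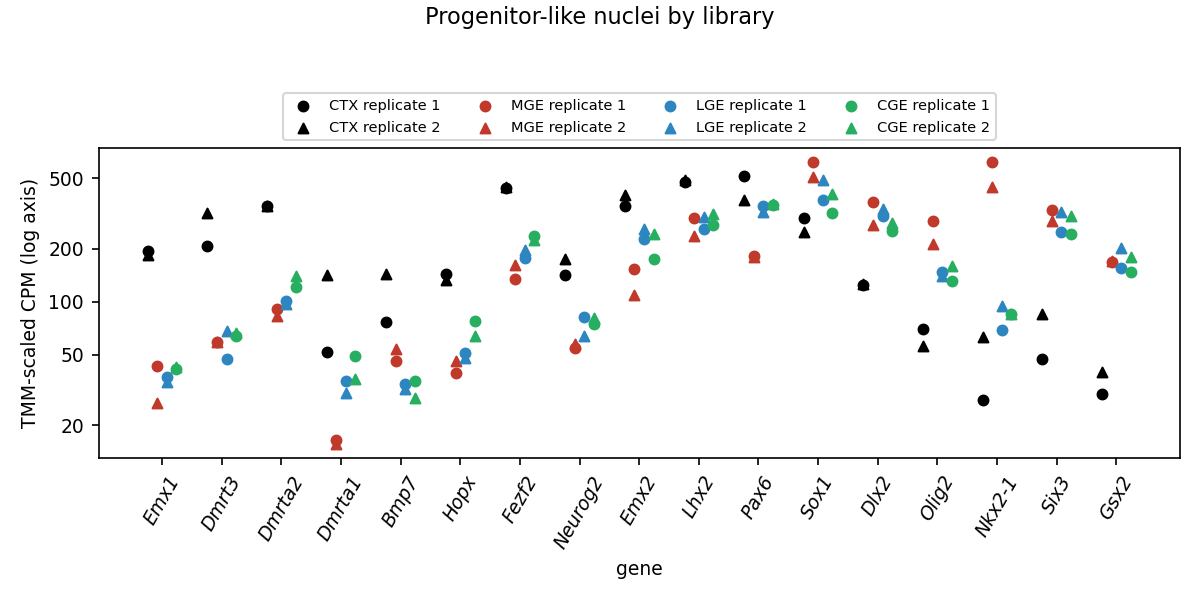
TMM-scaled CPM (vertical log axis) of 17 genes (horizontal axis) in progenitor-like nuclei of each of the 8 libraries; circles are replicate 1, triangles replicate 2, and colours the regions. For Emx1 the CTX libraries lie at 195 and 185 and all GE libraries at 43.1 or below, while for Gsx2 CTX lies at 30.1 and 40.0 and GE at 148 or above.

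Calls in the radial glia and Notch lists went in both directions. Of 14 radial glia genes, Hopx, Tnc and Pax6 rose, Sox1 fell and 10 were not called, with a median of -0.08. Tnc, an extracellular matrix protein, was at 52.9 and 26.4 CPM against 11.2 to 29.5, so 1 CTX library lay within the GE range, and 10 of 21 alternatives lost the call. Hopx was at 143 and 132 CPM against 39.5 to 77.5 (log2 fold 1.38, SE 0.13, edgeR adjusted p = 0.000278). Sox1 was at 297 and 249 CPM against 319 to 617 (log2 fold -0.71, SE 0.18, edgeR adjusted p = 0.0435), and 11 of 21 alternatives lost the call. Of 20 Notch genes, Notch2, Maml2 and Hey2 rose and Dll1 and Dll3 fell. The call was lost in 8 of 21 alternatives for Maml2 and in 9 for Hey2. Notch2 was at 751 and 361 CPM against 209 to 403, so 1 CTX library lay within the GE range, and 11 of 21 alternatives lost the call (log2 fold 0.89, SE 0.23, edgeR adjusted p = 0.0462). Dll3 was at 26.0 and 28.5 CPM against 38.3 to 80.6 (log2 fold -0.92, SE 0.16, edgeR adjusted p = 0.00813). Fgf signalling genes (11), early progenitor genes (11), endothelial genes (7) and erythroid genes (3) had 0 calls by edgeR. Over all genes 3.76% rose and 1.42% fell, so 0 calls in lists this short are not read as a result about them.

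Of 16 late radial glia genes 5 rose and 1 fell, with a median of 0.46. Aldoc was at 110 and 36.2 CPM in CTX members and 2.00 to 8.92 in GE (log2 fold 3.77, SE 0.32, edgeR adjusted p = 0.000241), and its region was also counted for Spag5. Nfix was at 1272 and 625 CPM against 275 to 574 (log2 fold 1.31, SE 0.23, edgeR adjusted p = 0.00835). Nfib was at 1645 and 1104 CPM against 589 to 779 (log2 fold 1.03, SE 0.16, edgeR adjusted p = 0.00458) and turned to -0.15 when the covered length was taken as offset. Of 13 Wnt signalling genes, Sfrp1, Fzd9 and Lef1 rose and Fzd5 fell. Fzd9 lost the call in 7 of 21 alternatives and turned to -0.011 with covered length as offset, and Lef1 lost it in 4. Sfrp1, a secreted Wnt antagonist, was at 323 and 214 CPM against 108 to 160 (log2 fold 0.90, SE 0.16, edgeR adjusted p = 0.00735). Fzd5, a Wnt receptor, was at 74.6 and 70.0 CPM against 103 to 159 (log2 fold -0.86, SE 0.14, edgeR adjusted p = 0.00458). Of 12 intermediate progenitor genes Neurog2, the proneural factor of the dorsal lineage, rose and none fell, at 141 and 175 CPM against 54.6 to 82.3 (log2 fold 1.21, SE 0.14, edgeR adjusted p = 0.000699). Of 10 hem genes Bmp7 rose, at 76.4 and 145 CPM against 28.6 to 54.1 (log2 fold 1.55, SE 0.20, edgeR adjusted p = 0.00144), and Wnt5a fell, a call lost in 14 of 21 alternatives.

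Of 12 glutamatergic neuron genes 2 fell and none rose. CTX members had been chosen for few counts at glutamatergic genes and GE members had not, so the lower levels in CTX cannot be told apart from the selection. They were Stmn2, at 11.3 and 13.5 CPM against 20.7 to 37.4 (log2 fold -1.16, SE 0.28, edgeR adjusted p = 0.0402), and Tubb3, a tubulin of neurons. Each lost the call in 10 of 21 alternatives, and Tubb3 turned to 0.013 with covered length as offset. Reln rose alone of 7 Cajal-Retzius genes, at 112 and 76.4 CPM against 42.4 to 70.6. Of the lists of non-neural cells, Ptprc rose among 5 microglial genes and Abcc9 fell among 8 mural genes, calls lost in 8 of 20 and 14 of 21 alternatives. The summed microglial list was 184 and 157 CPM in CTX and 154 to 206 in GE, and the part of such cells in the results was not tested.

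Single regions were tested in the same way. Of 67861 regions 6545 (9.64%) rose and 2617 (3.86%) fell in CTX, a total of 9162, which was 5481 without CGE replicate 2. Regions at start sites made up 22.6% of those tested, 4.97% of those that rose and 9.97% of those that fell. Over all peaks, CTX members placed 40.6% and 46.8% of their counts at start sites and GE members 48.5% to 54.6%. The part of this library-wide difference in the region calls was not tested. Of 37 regions of dorsal genes 17 rose and 1 fell, and of 24 regions of ventral genes 12 fell and none rose. Of 179 regions of radial glia genes 19 rose and 14 fell, a count that leans on Fgfr2, whose span shares regions with many neighbours. In the CTX library labelled E12.5 its regions held 254 kb of peaks, against 29.6 kb for Pax6, the next largest of the list. Emx1 had 2 tested regions. The one at its start site, chr6:85185272-85195567, was at 139 and 141 CPM against 25.1 to 40.2 (log2 fold 2.08, SE 0.17, edgeR adjusted p = 0.000397). The downstream one, chr6:85201049-85213732, was at 29.2 and 30.4 CPM against 0.185 to 2.80 (log2 fold 4.17, SE 0.46, edgeR adjusted p = 0.000964). The downstream region thus had the larger ratio, but its GE levels were low, down to 0.185 CPM, so the size of that fold is uncertain. Among the regions with the largest folds, chr8:27875289-27879233 lies 429591 bases from the start of Poteg and had 57 and 254 counts in CTX members against 0 to 28 in each of the 6 GE libraries and 50 in all (edgeR adjusted p = 0.00332). Its fitted fold depends on the prior count and is not given. The region chr15:77810200-77811836, inside Myh9, had 0 counts in members of both CTX libraries and 655 in GE members (60 to 204 per library). The size of its fold depends on the floor chosen and is not given.

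Motif totals differed little between CTX and GE members. Of 579 motifs 28 (4.84%) rose and 1 (0.173%) fell. Most that rose are homeodomain motifs with like letters, such as LHX2, at 779 and 827 CPM of motif counts against 539 to 661 (log2 fold 0.42, SE 0.07, edgeR adjusted p = 0.0421), and Dlx2, at 8833 and 9008 against 7030 to 8062 (log2 fold 0.27, SE 0.05, edgeR adjusted p = 0.0421). GSX2, whose gene was lower in CTX, had a motif total that was higher, at 1306 and 1502 CPM against 833 to 1184. The motif that fell was E2F7 (log2 fold -0.55, SE 0.10). EMX1 missed the threshold (log2 fold 0.32, SE 0.07, edgeR adjusted p = 0.0518). The direction of the motif calls depended on which CTX library was left out. The count of 29 was 0 without any 1 of the 6 GE libraries, where 74 to 114 motifs had an unadjusted p under 0.05, and DESeq2 called 67. It was also 0 with the replicate number as a block (96 at an unadjusted p under 0.05) and 0 with total counts without TMM (115), so no single motif call held under these settings.

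Finally, the step from other nuclei to members was compared between CTX and GE by the interaction in edgeR's quasi-likelihood test. Of 16194 genes 89 (0.55%) had a larger log2 effect in CTX and 61 (0.377%) a smaller one. CTX and GE nuclei were ranked on different neuron genes, so the calls compare 2 rankings as well as 2 territories, and nothing is read from them about the territories. None of 14 radial glia genes and none of 20 Notch genes was called, while 2 of 5 GABAergic genes (Lhx6 and Sp9) and 2 of 12 glutamatergic neuron genes (Neurod1 and Nhlh2) were. When GE nuclei were ranked on the glutamatergic genes too, edgeR called 0 genes, with 1537 at an unadjusted p under 0.05. The total of 150 was 1479 without the CTX library labelled E12.5, 2338 without that labelled E14.5, 45 and 29 without MGE replicates 1 and 2, 41 and 31 without LGE replicates 1 and 2, and 42 and 31 without CGE replicates 1 and 2. DESeq2 called 265.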

How the data were processed

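Single-nucleus ATAC-seq was measured in 8 wild-type mouse forebrain libraries. The authors deposited, per library, raw counts per peak and nucleus and raw counts per motif and nucleus, from Cell Ranger ATAC 1.2.0 and GRCm38 (mm10) per the submitters' processing notes; each library has its own peak set. Paper methods were not used, and other steps are not given in the sources used here. Counts of peaks over a gene body or the 2000 bases upstream were summed for 21924 GENCODE M21 genes. A peak over several genes counted for each.

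Members and gene lists were chosen with earlier results of these data known. Peaks were merged into 292532 regions, of which 68274 had a peak in all 8 libraries. A gene with more bases inside peaks gets a larger sum, hence the alternative with covered length as offset. Nuclei were summed per library, since nuclei are not replicates, and CTX was tested against the mean of MGE, LGE and CGE in 1 model of 4 groups with edgeR 4.0.16 (glmQLFTest, TMM, filterByExpr, R 4.3.3) and Benjamini-Hochberg adjustment at 0.05. DESeq2 1.42.0, other limits and scalings, and leaving out each library were alternatives. Intervals are exact Poisson or Clopper-Pearson at 95%. The tests were checked on simulated counts with log2 changes of 0.5, 1 and 2. For genes 7.94%, 83.6% and 97.1% of these were called in the right direction, and for regions 0%, 0% and 33.3%. The regions given these changes were 68, 56 and 75 of 67445, and 4 unchanged regions were called too. In the measured data 9162 of 67861 regions were called, far more than were changed in the check, so these shares cannot be carried over. The share of large changes missed in the measured regions was not tested. A region that was not called is not shown to be unchanged.

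Named within CTX were at most 6 genes per list by size of the mean ratio, those of opposite sign in the libraries, and 10 further protein-coding genes per direction. Named against GE were at most 4 called genes per list and 5 per direction. Of regions, 4 per direction within CTX and 2 against GE were named, and of motifs the lists and 5 per direction. Some genes that met these rules are not reported here.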

Additional observations from a re-analysis of the deposited data

Results flagged for a closer look

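The difference between members and other nuclei was not the same in CTX and GE for 150 genes by the interaction in edgeR's quasi-likelihood test (adjusted p under 0.05 after Benjamini-Hochberg). Those of the gene lists are given here as log2 effects of members over other nuclei, CTX minus GE, from 2 CTX and 6 GE libraries. CTX and GE nuclei were ranked on different neuron genes, and 0 genes were called when both were ranked on the glutamatergic genes. The single values below are therefore descriptions, with no p.

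Of 5 GABAergic genes 2 were called. Lhx6, an MGE interneuron factor, differed by 0.81 (0.04 in CTX, -0.78 in GE). Sp9, a zinc-finger factor of GABAergic precursors, differed by 0.69 (-0.05 and -0.74). The GE nuclei had been chosen for few counts at other GABAergic genes.

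Of 12 glutamatergic neuron genes 2 were called, and 1 of 7 Cajal-Retzius genes. Nhlh2 differed by -0.88 (-1.17 in CTX, -0.29 in GE) and Neurod1 by -0.84 (-0.88 and -0.04). Ebf2, a factor of Cajal-Retzius cells, differed by -0.56 (-0.44 and 0.12). The CTX nuclei had been chosen for few counts at other glutamatergic genes.

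The remaining 5 genes had a positive value in GE and a lower or negative one in CTX. Nkd1 differed by -0.73 (-0.47 in CTX, 0.26 in GE) and Wnt7b by -0.60 (-0.17 and 0.43). Wnt5a differed by -0.55 (-0.10 and 0.45), Olig2 by -0.55 (-0.15 and 0.40) and Nfia by -0.44 (0.17 and 0.61).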

How the results depend on the processing

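For the CTX and GE comparison of genes, 839 calls became 254 with covered length as offset, 304 with start-site regions only and 423 to 1219 when 1 library was left out. Regions (9162) gave 5481 to 12483 when 1 library was left out. Motifs (29) gave 67 with DESeq2, 0 with total counts without TMM (115 at an unadjusted p under 0.05) and 0 to 16 when 1 library was left out. The interaction (150) gave 98 with a minimum of 10000 counts, 0 with the glutamatergic list in GE, 265 with DESeq2, 228 with all peaks of each library, 52 with start-site regions only and 29 to 2338 when 1 library was left out. The 28 genes lower in members of both CTX libraries became 46 with the lowest 10%, 71 with a prior of 1 CPM and 865 genes in either direction with the highest 15% as comparison. Per covered kilobase the medians between the CTX libraries were -0.077 (late radial glia, from -0.36) and 0.22 (early progenitor, from 0.36). Over all genes the median per covered kilobase was 0.21, from 0.14. Reversed were Ppp1r17 (-5.02, to 2.67 with all peaks of each library) and, with covered length as offset, Tubb3 (-0.61 to 0.013), Fzd9 (0.85 to -0.011) and Nfib (1.03 to -0.15). The cause was not tested. Emx1, Dmrt3, Dmrta1, Dmrta2, Hopx, Bmp7, Aldoc, Gsx2, Six3, Nkx2-1, Olig2, Dlx1 and Dlx2 kept direction and call under all 21 alternatives. Reln and Sfrp1 lost the call in 2 of 21, and Neurog2, Nfix, Fzd5 and Dll3 in 1 of 21.

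Whether replicate numbers mark a shared batch was not settled. Deviations of same-numbered libraries correlated over genes at 0.50 for LGE with CGE, 0.26 for CTX with LGE and 0.23 for CTX with CGE, but at 0.09 or less for the 3 pairs with MGE, so the block was kept as an alternative. Over motifs the 3 pairs within GE correlated at 0.28 to 0.41 and CTX with each GE region at -0.47 to -0.24. Odd values made up 9.54% to 10.4% of count entries in every replicate 1 and 5.17% to 5.85% in every replicate 2. With the replicate block 1100 genes, 8949 regions and 0 motifs were called, the last with 96 at an unadjusted p under 0.05.

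Age and library are the same contrast in CTX. Depth, 1 cortical library per age and peaks called per library limit the precision.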

Other observations

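The genes with the largest folds between CTX and GE members were outside the lists, and for each of the 4 named here the CTX libraries labelled E12.5 and E14.5 differed widely. Serpinf2 was at 85.7 and 14.0 CPM in CTX and 0.300 to 2.50 in GE (log2 fold 5.06, SE 0.56, edgeR adjusted p = 0.000668), and its log2 fold was 3.23 without the library labelled E12.5 and 5.84 without that labelled E14.5. Cldn9, a tight-junction claudin, was at 17.9 and 45.3 CPM against 0 to 2.90 (log2 fold 4.52, SE 0.64, edgeR adjusted p = 0.00242), and 5.03 and 3.70 without each CTX library in that order. Gpr183, an oxysterol receptor, was at 39.1 and 12.2 CPM against 0.253 to 3.41 (log2 fold 4.23, SE 0.47, edgeR adjusted p = 0.000699), and 3.15 and 4.84 without them. Gpr17, a receptor of oligodendrocyte precursors, was at 0.400 and 4.77 CPM against 12.7 to 58.2 (log2 fold -3.28, SE 0.54, edgeR adjusted p = 0.00536), and -2.40 and -5.93 without them. With 1 CTX library left, the spread came from the GE groups alone and the lone library was assumed to vary like them, so these values show only that the size of each fold depended on which CTX library was used. The regions counted for Gpr183 and Gpr17 were also counted for Ubac2 and Lims2, so those calls cannot be assigned to 1 gene.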
